A study of Mus musculus with 2 samples.

Results

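The genes described here make cholesterol, move it through the cell and control its synthesis through the sterol regulatory element-binding proteins (SREBPs). They were taken from a list of 35 genes, and the 32 of them that the deposited table of 14197 genes holds under the same symbol were analysed. The list was drawn up with earlier results of these data known. Abca1, Abcg1 and Nr1h3 were not analysed here. The study treated 4T1 cells, an established murine mammary carcinoma line of wild-type genotype by its labels, with 20 μM astragalin (AS), a plant flavonoid, or with the vehicle, and RNA was taken after 24 h. A stranded mRNA library was made from each, so there was 1 library per condition, both from the same line in culture, and the report compares these libraries with no measure of the spread between dishes. For this reason no p-value is given, and intervals beside a value cover counting error only.

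Cholesterol is built from acetyl-CoA in the cytosol and the endoplasmic reticulum. The mevalonate arm makes isoprenoid units, these are joined to squalene, squalene is closed to lanosterol, and lanosterol is trimmed to cholesterol. SREBP-2 and SREBP-1 are membrane-bound transcription factors that SCAP escorts to the Golgi when sterols are low, where they are cut and released to the nucleus. INSIG proteins hold the SCAP complex back when sterols are plentiful. Most of the synthesis enzymes and Insig1 are textbook SREBP target genes, and tumor cells are known to use the pathway for membranes and for prenylated proteins.

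The level of a gene was its RPKM, a read number divided by exon length and library size, as deposited. Whole reads were recovered from these values for all 14197 genes, and their totals were 44820055 (AS) and 50723555 (vehicle). A fold change was AS over vehicle on the log2 scale, with 0.1 RPKM added to each value, which understates the change of genes of low level. A gene was called when it differed by more than 2-fold (1 on the log2 scale) or, as a lower threshold, by more than 1.5-fold (0.585). The epithelial markers Epcam, Krt8, Krt18, Krt7, Krt19 and Cldn4 summed to 1714 RPKM under AS and 2228 RPKM under vehicle. They did not share a direction. The keratins were each lower with AS, Epcam was slightly lower (335 and 357 RPKM), and Cldn4 was higher (45.8 and 34.2 RPKM). The 3 leukocyte markers analysed of 5 listed summed to 0.813 and 0.879, and the 2 fibroblast markers analysed of 5 listed to 5.13 and 4.87, while the 3 endothelial markers listed were not analysed. The part of the lower epithelial sum in the results was not tested. In such bulk RNA, fewer cells of a kind and less RNA per cell cannot be told apart.

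The promoters of the genes that were lower with AS show what sequence the pathway carries upstream of its starts. RefSeq promoter windows (build GRCm38.p6), from 250 bases before to 50 bases after a start of transcription, were found for 26 of the 32 genes. The letters TCACNCCAC, a core of the sterol regulatory element that SREBPs bind, and CCAAT, the box bound by NF-Y, a factor known to work with SREBPs, were searched on both strands, and no match of the first overlapped a match of the second in these genes. Stretches were shown only for genes lower by more than 1.5-fold that have a single window with at least 200 bases ahead of the first annotated exon. Of these, the gene with the lowest fold change in each role is shown, and in addition Mvk, which holds the most CCAAT boxes. Each stretch begins 250 bases before the start and reads 5′ to 3′ on the strand of the gene, and capitals mark the matches, which read ATTGG where the box lies on the other strand.
Hmgcs1, chr13:119690101-119690350, plus strand: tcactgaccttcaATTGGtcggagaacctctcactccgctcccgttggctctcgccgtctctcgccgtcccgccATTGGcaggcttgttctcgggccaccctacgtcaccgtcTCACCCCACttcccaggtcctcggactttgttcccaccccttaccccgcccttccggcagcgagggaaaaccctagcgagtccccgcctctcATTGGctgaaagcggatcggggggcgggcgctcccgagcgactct
Mvk, chr5:114444019-114444268, plus strand: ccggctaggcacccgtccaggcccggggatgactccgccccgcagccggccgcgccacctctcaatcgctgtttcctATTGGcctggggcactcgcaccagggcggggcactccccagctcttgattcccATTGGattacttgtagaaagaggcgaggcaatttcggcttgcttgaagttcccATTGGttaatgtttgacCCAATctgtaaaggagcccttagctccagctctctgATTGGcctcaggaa
Lss, chr10:76531355-76531587, plus strand: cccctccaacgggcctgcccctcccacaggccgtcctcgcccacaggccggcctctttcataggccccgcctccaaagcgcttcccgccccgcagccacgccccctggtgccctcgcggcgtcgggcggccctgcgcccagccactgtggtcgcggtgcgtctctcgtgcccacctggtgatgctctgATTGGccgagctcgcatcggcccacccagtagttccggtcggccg
Hsd17b7, chr1:169969242-169969455, minus strand: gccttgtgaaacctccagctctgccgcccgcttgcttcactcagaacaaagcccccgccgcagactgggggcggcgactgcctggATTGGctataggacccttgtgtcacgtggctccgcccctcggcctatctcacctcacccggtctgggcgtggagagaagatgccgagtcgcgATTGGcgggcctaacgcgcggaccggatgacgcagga
Insig1, chr5:28071162-28071362, plus strand: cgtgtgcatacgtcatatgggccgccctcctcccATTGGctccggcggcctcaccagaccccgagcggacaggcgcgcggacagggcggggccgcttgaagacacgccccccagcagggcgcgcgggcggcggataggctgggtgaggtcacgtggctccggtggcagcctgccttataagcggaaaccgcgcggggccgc

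CCAAT boxes were frequent in these promoters. Of the 26 genes with a window, 23 (88.5%) held CCAAT, against 43.1% of the 9680 genes of the table with a window and 41.1% of all 27025 genes with a window. At least 2 boxes in 1 window were found in 14 of the 26, and Mvk held 5. The share was much the same in genes that were lower with AS and in the others. Among genes lower by more than 1.5-fold, 9 of 10 held the box, and among the other members 14 of 16 did. Acat2, Scap and Nr1h2 were the 3 without it. The sterol element core was found in Hmgcs1 alone, at position -137 from its start, and in 1.38% of the genes of the table with a window. Other forms of the element, and sites outside these windows, were not searched.

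**Figure D1:**
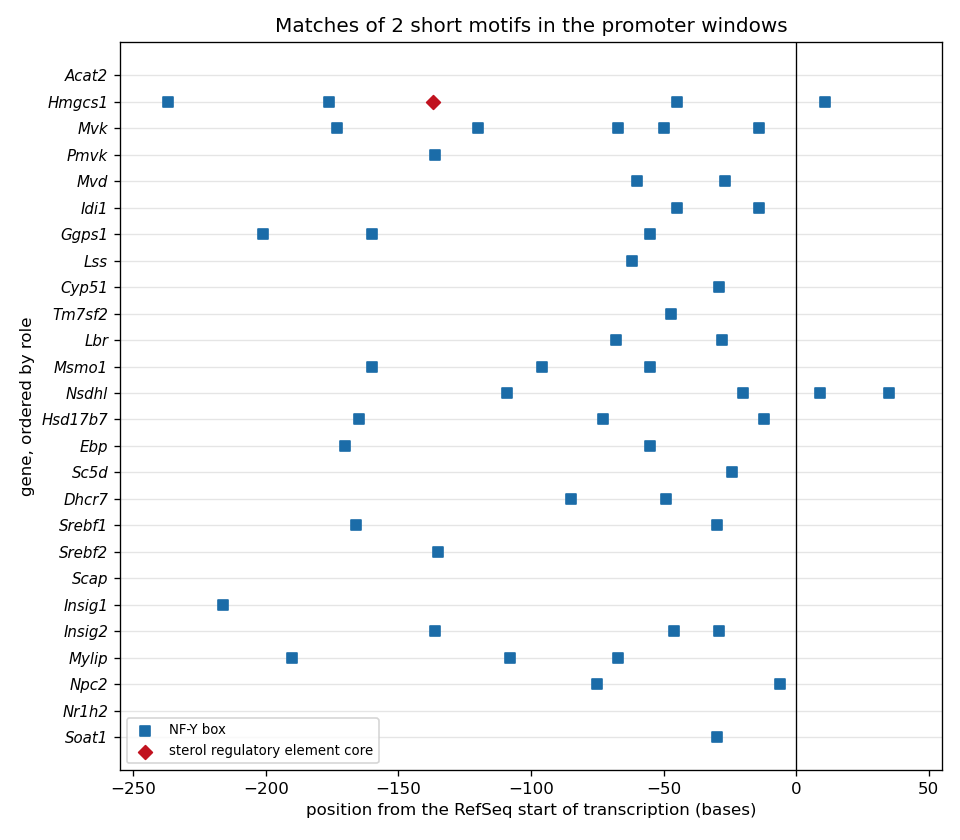
Positions of matches to the sterol regulatory element core (red diamond) and the NF-Y box (blue squares) in the promoter windows of 26 genes, ordered by role, with the distance in bases from the RefSeq start on the horizontal axis and every window of a gene on its line. The boxes are seen in 23 genes, and the single sterol element core lies in Hmgcs1.

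As a whole the pathway was lower in the AS library. Of the 32 genes, 26 (81.3%) were lower with AS, whereas 39.1% of all genes were. The median log2 fold change was -0.43, beside 0.07 over all genes. At 1.5-fold, 13 genes were lower with AS, beside a background of 2.01% of the table lower by as much, and 1 gene, Soat2, was higher, beside a background of 3.56%. At 2-fold, Idi1 was lower and Soat2 was higher, beside 0.31% and 0.662% of the table. With TMM scaling of the reads and 0.5 reads added in place of 0.1 RPKM, Idi1, Hmgcs1 and Hsd17b7 were lower (3 genes) and Soat2 was higher (1 gene) at 2-fold. Over the whole table the number then went from 44 to 82 lower and from 94 to 128 higher. Total-count scaling with the same 0.5 reads added gave 65 lower and 160 higher, so part of this change came with the amount added and not with TMM. The 2-fold calls are single genes on each side, so the pattern rests on moderate differences shared by many enzymes.

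**Figure D2:**
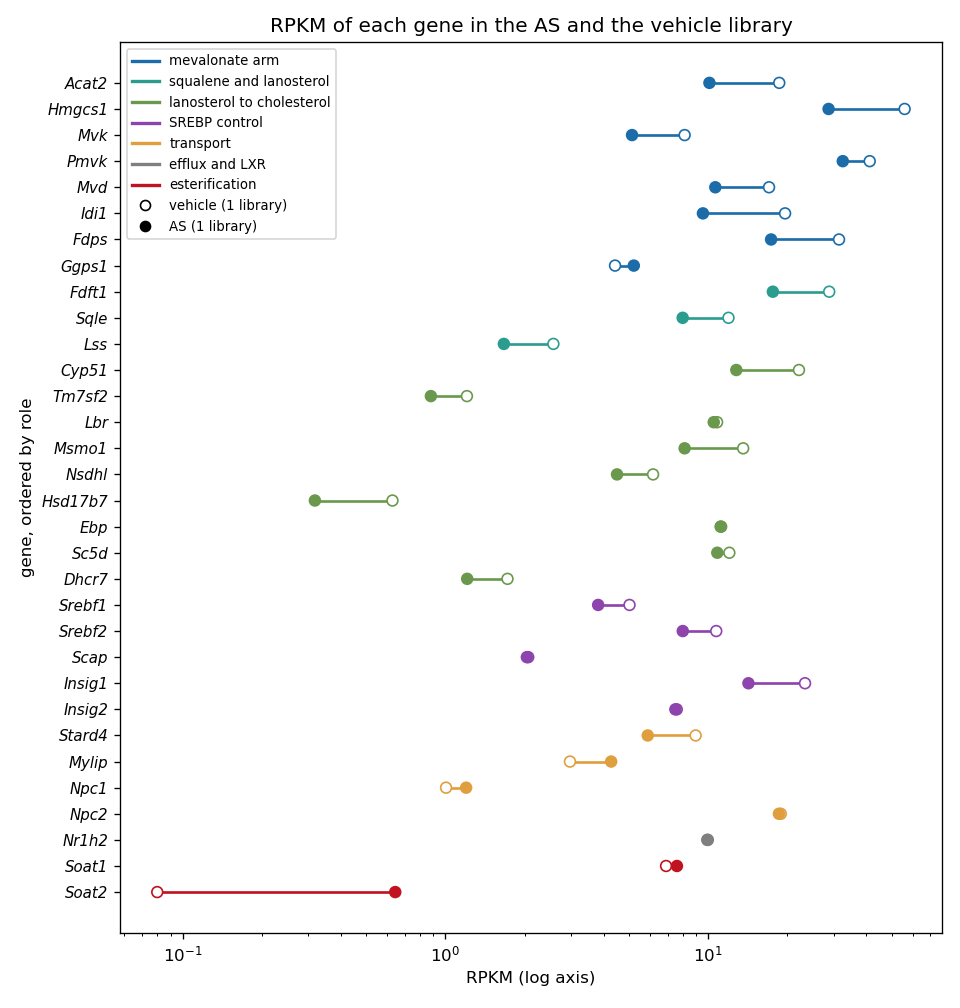
RPKM (log axis) of each of the 32 genes in the vehicle library (open circles) and the AS library (filled circles), 1 library each, with colors for the role in the pathway. Filled circles lie to the left of open circles for 19 of the 20 synthesis enzymes, and Soat2 at the bottom spans the largest distance, from 0.08002 to 0.644.

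The synthesis enzymes were nearly all lower with AS. They were 20 of the 32 genes, 19 of them were lower with AS, and 11 were lower by more than 1.5-fold, beside 39.1% and 2.01% of the table. Their RPKM summed to 207 under AS and 319 under vehicle, a log2 ratio of -0.63, from 34695 and 61778 reads. Their median log2 fold change was -0.63, and that of the 12 other members was -0.02.

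Among the synthesis segments the difference of the summed level was largest in the mevalonate arm, which turns acetyl-CoA into farnesyl diphosphate. Its RPKM summed to 119 with AS and 196 with the vehicle, and 6 of its 8 genes were lower by more than 1.5-fold, beside 2.01% of the table. Idi1 encodes the isomerase that interconverts the isoprenoid building blocks (chromosome 13 of GRCm38, from 8885501 to 8892451). It reached 9.54 RPKM under AS and 19.6 RPKM under vehicle, from 1502 and 3491 reads. This is -1.03 on the log2 scale, with a 95% interval of the reads (Clopper-Pearson) from -1.13 to -0.95, and only 37 genes of the table had a lower value, since Idi1 was number 38 from the lowest. A processed pseudogene, Idi1-ps1, has its own row in the table, where 156 reads under AS and 484 under vehicle give -1.44 on the log2 scale, so how reads were divided between these copies is uncertain. Without Idi1 no member was lower by more than 2-fold.

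Hmgcs1, the cytosolic HMG-CoA synthase, was the most abundant synthesis gene in the vehicle library (chromosome 13, from 119690379 to 119708260). It had 28.7 RPKM under AS and 55.9 RPKM under vehicle, from 5920 and 13044 reads. Its log2 fold change of -0.96 (interval -1.01 to -0.92) was number 54 from the lowest of all genes. Acat2, the cytosolic thiolase that opens the pathway (chromosome 17, from 12942890 to 12960747), stood close to it. Acat2 had 10.1 RPKM under AS and 18.6 RPKM under vehicle and a log2 fold change of -0.88 (interval -0.99 to -0.78). Fdps, the farnesyl diphosphate synthase at the end of the arm (chromosome 3, from 89093588 to 89101959), had 17.3 RPKM under AS and 31.4 RPKM under vehicle, a log2 fold change of -0.85. These 4 genes, which include both ends of the arm, were each lower by at least 1.81-fold.

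The kinases and the decarboxylase between them were lower by less. Mvk, mevalonate kinase, had 5.13 RPKM under AS and 8.13 RPKM under vehicle, a log2 fold change of -0.65 that fell short of 1.5-fold with 1 RPKM added (-0.58). Mvd, the decarboxylase that yields the first isoprenoid unit, had 10.6 and 17.03 RPKM, a log2 fold change of -0.67. Pmvk, the phosphomevalonate kinase, was high in both libraries, with 32.5 RPKM under AS and 41.1 RPKM under vehicle, and its log2 fold change of -0.34 did not reach 1.5-fold. Pmvk was thus the most abundant synthesis gene in the AS library, in the place Hmgcs1 held with the vehicle.

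Ggps1 differed from the rest of the arm. It encodes geranylgeranyl diphosphate synthase, which draws farnesyl diphosphate away from sterols toward prenylated proteins (chromosome 13, from 14050659 to 14063488). It reached 5.21 RPKM under AS and 4.42 RPKM under vehicle, and its log2 fold change of 0.23 (interval 0.11 to 0.36) made it the only synthesis gene above 0, apart from Ebp at 0.03 once trends with gene length and level were removed. The ratio of Hmgcs1 to Ggps1 within a library, which does not depend on the scaling between libraries, was 5.51 with AS (interval 5.17 to 5.88) and 12.6 with the vehicle (11.9 to 13.5). This pair was chosen after the values were seen, with Ggps1 the gene above 0, so the separation of the intervals was built into the choice and is no test.

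The 3 genes from farnesyl diphosphate to lanosterol were all lower by about the same amount. Fdft1, squalene synthase and the first enzyme committed to sterols (chromosome 14, from 63145150 to 63179578), had 17.6 RPKM under AS and 28.9 RPKM under vehicle, a log2 fold change of -0.71. Sqle, squalene epoxidase, had 7.99 and 11.9 RPKM, and its log2 fold change of -0.57 lay just short of 1.5-fold. Lss, the lanosterol synthase, had 1.67 and 2.57 RPKM, and its log2 fold change of -0.60 lay just past it, but not with 1 RPKM added (-0.42). The intervals of Sqle (-0.66 to -0.50) and Lss (-0.75 to -0.50) overlap, so which of them passed the threshold says nothing on a difference between them.

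From lanosterol to cholesterol all 9 genes were below 0 (Ebp was above it once trends with gene length and level were removed), with a median of -0.45, and their sizes differed widely. Cyp51, the lanosterol demethylase (chromosome 5, from 4081145 to 4104746), had 12.8 RPKM under AS and 22.1 RPKM under vehicle, a log2 fold change of -0.79 (interval -0.86 to -0.72). Msmo1, the methylsterol oxidase, had 8.13 and 13.6 RPKM, a log2 fold change of -0.73. Hsd17b7, the keto reductase of the same demethylation complex, was low in both libraries. It had 0.318 RPKM from 73 reads under AS and 0.628 RPKM from 163 reads under vehicle. Its log2 fold change of -0.80 depended on the amount added, being -0.98 with none and -0.30, short of 1.5-fold, with 1 RPKM added. The interval of its reads, which has nothing added and so surrounds -0.98, was wide, from -1.40 to -0.57. Cyp51, Msmo1 and Hsd17b7 were the 3 genes of the segment past 1.5-fold.

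Nsdhl, the dehydrogenase of the demethylation complex, had 4.50 RPKM under AS and 6.17 RPKM under vehicle, a log2 fold change of -0.45. Dhcr7, the reductase that completes cholesterol, had 1.21 and 1.72 RPKM, a log2 fold change of -0.48. Sc5d, the lathosterol desaturase just before it, had 10.8 and 12.03 RPKM, a log2 fold change of -0.15. Ebp, the sterol isomerase, had nearly the same RPKM in both libraries, 11.1 under AS and 11.2 under vehicle, a log2 fold change of -0.0064 (interval -0.12 to 0.11) that became 0.03 once trends with gene length and level were removed.

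Tm7sf2 and Lbr encode sterol reductases that can carry out the same step, and Lbr is also a protein of the inner nuclear membrane. Tm7sf2 had 0.880 RPKM under AS and 1.21 RPKM under vehicle, a log2 fold change of -0.42. Lbr had 10.5 and 10.8 RPKM, a log2 fold change of -0.04. The abundant reductase gene of the pair was thus the one that differed little. The ratio of Lbr to Tm7sf2, a pair also chosen after the values were seen, was 11.9 with AS (interval 10.2 to 13.99) and 8.95 with the vehicle (7.90 to 10.19).

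**Figure D3:**
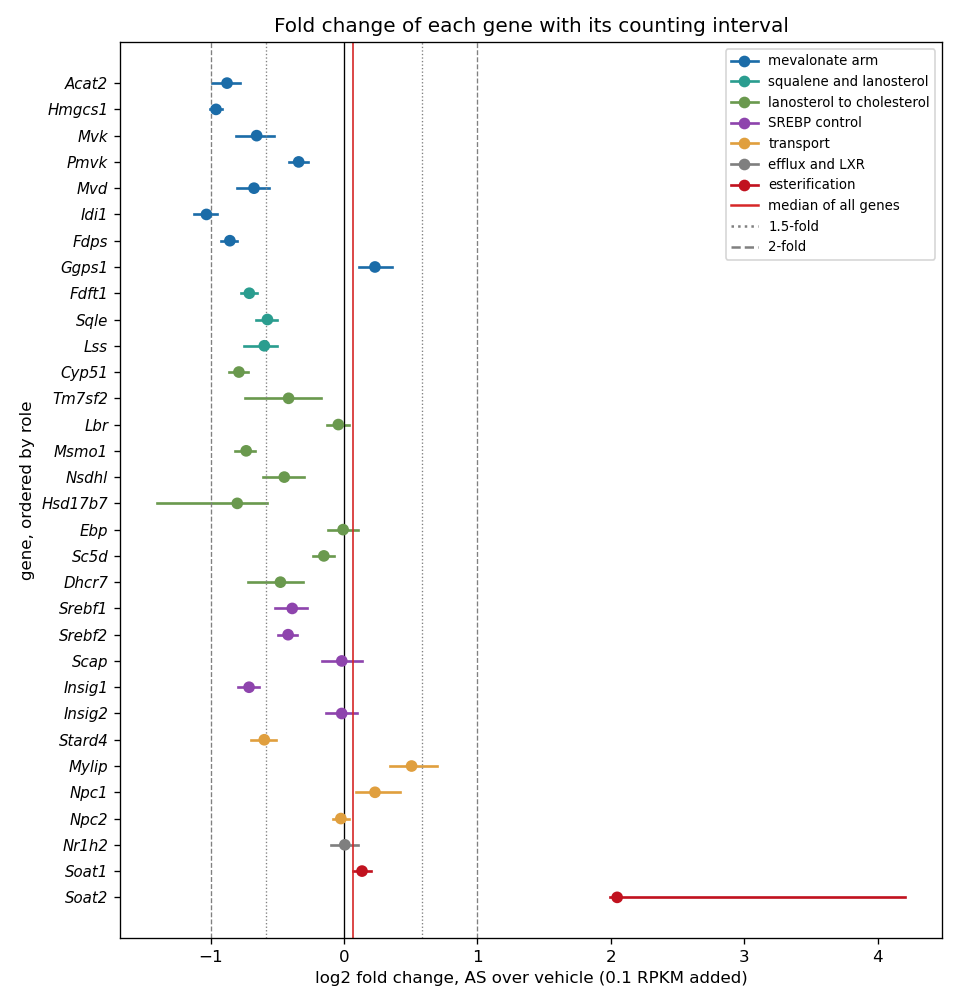
Log2 fold change of AS over vehicle for the 32 genes (points, 0.1 RPKM added) with the 95% Clopper-Pearson interval of the reads alone (bars), which cover counting error only; dotted and dashed lines mark 1.5-fold and 2-fold, and the red line the median of all genes, 0.07. Idi1 lies farthest to the left at -1.03, Ggps1 stands alone among the enzymes at 0.23, and Soat2, with 9 reads under vehicle, has the widest interval.

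The genes that control SREBP differed among themselves. Insig1, an SREBP target that retains SCAP in the endoplasmic reticulum (chromosome 5, from 28071363 to 28078662), had 14.2 RPKM under AS and 23.3 RPKM under vehicle, a log2 fold change of -0.71 (interval -0.79 to -0.64). Its relative Insig2, which does the same task but is not known to depend on SREBP in the same way, had 7.49 and 7.59 RPKM, a log2 fold change of -0.02 (interval -0.13 to 0.10). The ratio of Insig1 to Insig2, again chosen after the values were seen, was therefore 1.90 with AS (interval 1.76 to 2.04) and 3.08 with the vehicle (2.89 to 3.28).

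Both SREBP genes were lower by less than 1.5-fold. Srebf2, the gene of the factor that drives cholesterol synthesis (chromosome 15, from 82147181 to 82205379), had 7.997 RPKM under AS and 10.7 RPKM under vehicle, a log2 fold change of -0.42 (interval -0.50 to -0.35). Srebf1, which is better known for fatty acid synthesis, had 3.81 and 5.02 RPKM, a log2 fold change of -0.39 (interval -0.52 to -0.28). Their ratio was 2.10 with AS (interval 1.95 to 2.26) and 2.14 with the vehicle (2.01 to 2.27), so no shift between the factors was detectable at this depth. Scap, the escort, had 2.04 and 2.06 RPKM, a log2 fold change of -0.02 with an interval from -0.17 to 0.13.

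The genes of transport did not share a direction. Stard4, a sterol carrier of the cytosol and a known SREBP-2 target, had 5.88 RPKM under AS and 8.95 RPKM under vehicle, a log2 fold change of -0.60 on the side of the enzymes, which was short of 1.5-fold with 1 RPKM added (-0.53). Mylip, the ubiquitin ligase that removes lipoprotein receptors and a known target of the liver X receptors (LXR), had 4.27 and 2.98 RPKM, a log2 fold change of 0.51 (interval 0.35 to 0.69) that went the other way. Npc1, the membrane protein that exports cholesterol from lysosomes, had 1.20 and 1.005 RPKM, a log2 fold change of 0.23. Npc2, which hands cholesterol to it, had 18.6 and 18.9 RPKM, a log2 fold change of -0.02.

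Esterification held the largest difference of the 32 genes. SOAT enzymes turn cholesterol into esters for storage, Soat1 in most cells and Soat2 mainly in intestine and liver. Soat1 had 7.60 RPKM under AS and 6.91 RPKM under vehicle, a log2 fold change of 0.14. Soat2 (chromosome 15, from 102150526 to 102163469) had an RPKM of 0.644 from 64 reads with AS and 0.08002 from 9 reads under vehicle, and its log2 fold change of 2.05 was number 6 from the highest in the table. It depended on the amount added, being 3.01 with none (interval of the reads 1.99 to 4.20) and 0.61 with 1 RPKM added, and with its few reads it is the least certain value of the set. Its mean of 36.5 reads was near the lowest mean in the table, 29.5, and 9 reads in both libraries would lie below that. Soat2 thus stands in the table through its AS reads, and its rank and its place as the only member called higher depend on that selection. In level it remained below its relative, since Soat1 was 11.8 times as high with AS (interval 9.22 to 15.4) and 86.3 times with the vehicle (45.4 to 189). Nr1h2, the gene of LXR beta, had 9.96 and 9.91 RPKM, a log2 fold change of 0.0063 that became -0.06 with TMM scaling, and was the single gene of the efflux and LXR group analysed of 4 listed.

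**Figure D4:**
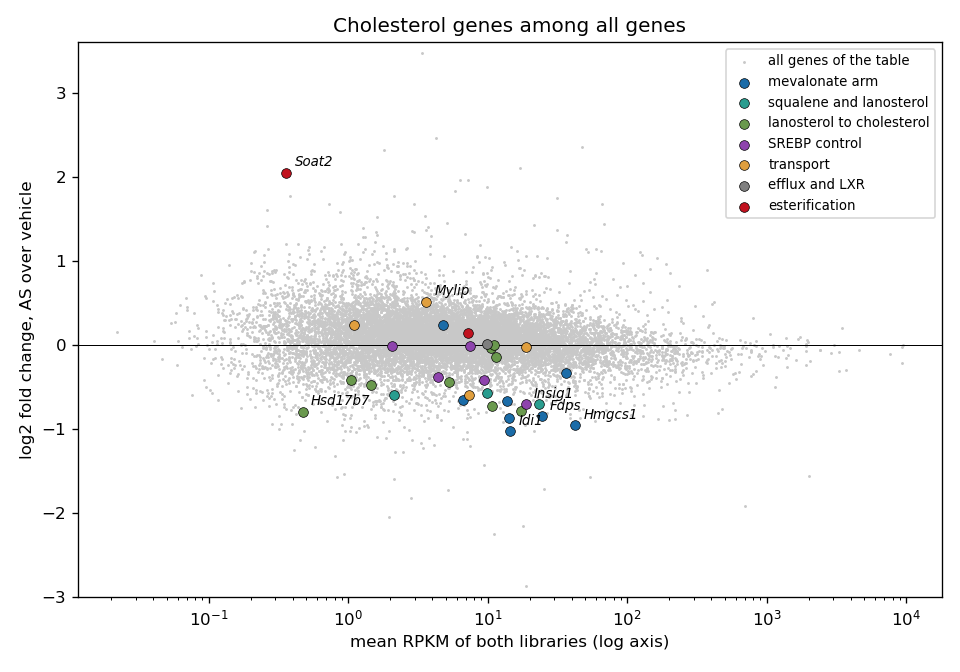
Log2 fold change of AS over vehicle against the mean RPKM of both libraries (log axis) for all genes (grey) and the 32 genes by role (colors); 3 genes of the table lie below the plotted range. Of the 8 enzymes of the mevalonate arm 6 lie past 1.5-fold on the lower side, among them Idi1 at -1.03 and Hmgcs1 at -0.96, while Soat2 stands apart at 2.05 on the side of low level.

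Neighbouring gene lists were set beside these values. The 18 genes listed for SREBP processing and turnover include the Golgi proteases Mbtps1 and Mbtps2 and the coat proteins that carry SCAP. Their median log2 fold change was 0.06. Of the 18, 0 passed 1.5-fold in either direction, beside 2.01% of the table lower and 3.56% higher by as much. A count this low in a list of this size is near those shares. The list is not complete, since it leaves out Spring1, a regulator of the SREBP pathway. Spring1 was higher past 1.5-fold, with 3.01 RPKM under AS and 1.70 RPKM under vehicle (0.79). The largest differences among the 18 listed were those of Paqr3, a Golgi anchor of SCAP, with 0.815 RPKM under AS and 0.536 RPKM under vehicle (0.53), and Mbtps2, with 4.77 and 3.69 (0.36). Of 22 genes of sterol and lipoprotein handling, 19 were analysed, with a median of 0.16. Vldlr, a lipoprotein receptor, was higher past 1.5-fold, with 0.765 and 0.369 RPKM and a log2 fold change of 0.88. No other of these 19 genes passed 1.5-fold, which is also near the shares of the table.

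The isoprenoid users, 13 genes of prenylation, ubiquinone and dolichol synthesis, had a median of 0.19 with 0 past 1.5-fold, beside 2.01% of the table lower and 3.56% higher by as much. The largest differences among them were those of Pdss1, a subunit of the synthase of the ubiquinone side chain, with 1.504 RPKM under AS and 1.93 RPKM under vehicle (-0.34), and Coq2, which attaches that chain, with 11.1 and 9.20 (0.27). The 14 fatty acid genes under SREBP-1 were lower in the median, at -0.25, and 11 of the 14 were lower with AS, beside 39.1% of all genes. Fads2, a fatty acid desaturase, had 35.9 RPKM under AS and 61.3 RPKM under vehicle, a log2 fold change of -0.77, and was the single gene of that list past 1.5-fold. The differences between the medians of these lists were not tested.

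**Figure D5:**
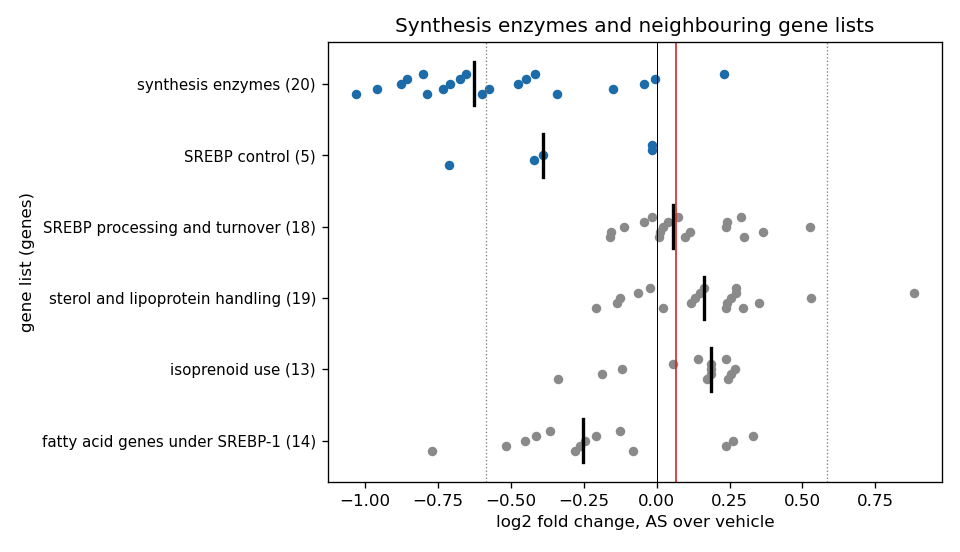
Log2 fold changes of AS over vehicle for single genes (points) of the synthesis enzymes and SREBP control (blue) and of 4 neighbouring lists (grey), with the number of genes analysed in brackets, black bars for medians, dotted lines at 1.5-fold and a red line at the median of all genes. The median of the synthesis enzymes is -0.63, that of the fatty acid genes -0.25, and those of the other neighbouring lists lie between 0.06 and 0.19.

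Some genes share exon bases with a neighbour, and how the authors' counting treated such reads is not given in the sources used here. In GENCODE M21 more than 10% of the exon bases were shared on the same strand by Fdps with Gm43738 (26.7%) and by Tm7sf2 with Vps51 (12.1%). On the other strand such a share was found for Fdft1 with Ctsb (18.3%), Scap with 5830462I19Rik (13.2%) and Hmgcs1 with Gm48342 (12.1%). Gm48342 itself had 27.3 RPKM under AS and 50.1 RPKM under vehicle, a log2 fold change of -0.87. The part of these neighbours in the values was not tested. With 1 library per condition, AS and any other difference between the dishes cannot be told apart.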

How the data were processed

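RNA-seq libraries of 4T1 cells treated with AS or vehicle (1 each) were analysed. The deposited table gives RPKM per library, as made by the authors. The unit is not named in it and was found from the values. It also gives the authors' log2 of the mean CPM, and their log2 fold change, p-value and FDR, which were not used. The submitters' processing notes name fastp 0.23.4, STAR 2.5.3a and featureCounts, and GRCh38, a human build, although the symbols are those of mouse, so the build used is not settled. The counting options and the filter on low genes are not given in the sources used here.

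Library sizes were taken as those that turn RPKM times the GENCODE M21 (GRCm38) exon length into whole reads (within 0.001 reads), 44909683 for AS and 50820728 for the vehicle. This held for 94.2% of 13502 genes whose symbol matches 1 annotation entry, and for 31 of the 32 members. The length from which reads were computed came from the mean log2 CPM for every gene, also for those that match the annotation. Recovery was tested on simulated data. The lowest mean was 29.5 reads. No molecular identifiers are named, so reads are not independent molecules, and the intervals (95% Clopper-Pearson, from the share of a gene's reads in the AS library) cover counting error only.

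Coordinates are those of GENCODE M21. Fold changes used 0.1 RPKM added and the authors' scaling. The intervals had no amount added, so the fold change of a gene of low level can lie off the centre of its interval. All members were named; of neighbouring lists, the genes past 1.5-fold, or else the 2 with the largest differences. The within-library ratios were chosen after the values were seen. Alternatives were other added amounts, other scalings of the reads, thinning, a minimum of 50 reads, removal of trends (20 bins, 3 rounds) and removal of genes with a pseudogene row. Such rows were searched only as the symbol of a member followed by -ps, so pseudogenes under other symbols were not covered. The members and lists were chosen with earlier results of these data known. Computations ran in Python 3.11 with scipy 1.17.1.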

Additional observations from a re-analysis of the deposited data

How the results depend on the processing

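With 1 library per condition no replicate could be left out. No paired analysis was possible because the groups share only 1 replicate number and no result comes from a test. Over 8 alternatives for each of 32 genes, 231 of 256 log2 fold changes stayed within the counting interval and 251 kept their sign, and the 5 of other sign belonged to Ebp and Nr1h2, both near 0. Of the 13 genes lower by more than 1.5-fold, 9 were so under each of the 8, and Mvk, Lss, Hsd17b7 and Stard4 were not with 1 RPKM added. The number of members lower by more than 2-fold was 1. It was 3 with TMM, median-of-ratios or upper-quartile scaling and 2 with the vehicle library thinned. It was 0 with 1 RPKM added, or without Idi1, the member with a pseudogene row under its own symbol. Over the whole table the number moved too, from 44 to 82, 83 and 88 with these scalings, 64 with thinning and 16 with 1 RPKM added. The scalings and the thinning used 0.5 reads added, and total-count scaling with that amount gave 65. Soat2, higher by more than 2-fold, was not so with 1 RPKM added (0 genes) and was left out by a minimum mean of 50 reads (0 genes, also at 1.5-fold). With 1 RPKM added, the members had a median of -0.33 on the log2 scale, with -0.30 from lanosterol to cholesterol and 0.36 for esterification. For squalene and lanosterol the median was -0.69 with TMM and with median-of-ratios scaling, -0.71 with upper-quartile scaling and -0.68 with trends removed. The log2 ratio of the summed enzymes was -0.69 with TMM, -0.70 with median-of-ratios and -0.71 with upper-quartile scaling, and the last of these gave -0.34 for the fatty acid genes. Of the whole table, 286 genes were lower by more than 1.5-fold, 350 with total-count scaling of the reads and 0.5 reads added, and 474 with TMM scaling, which lowered each value from reads by a further 0.07. The members so called were 13, 13 and 14. The difference between the medians of the members and of all genes was -0.50, and it ranged from -0.52 to -0.38 over the alternatives.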
